A study of Mus musculus with 4 samples.

Results

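Dusp4, Dusp6 and Dusp9 encode MAP kinase phosphatases, and in mouse embryonic stem cells given the compound CID755673 the transcript of Dusp9 was higher and those of Dusp4 and Dusp6 were lower. The 3 genes were picked by their symbols from the 1593 genes of the authors' deposited table of this comparison, so they were chosen with its values known. The PC cells were given CID755673, which inhibits protein kinase D, and the PD cells they were set against were not. Both groups were 46C cells, in which GFP reports on the neural gene Sox1, and both were held for 24 h in serum with PD0325901 at 1 µM, an inhibitor of MEK. No source used here gives the dose of CID755673. There were 2 libraries of total RNA per group, and no label says whether these came from separate cultures, so any p-value covers only the spread between them, which may be technical. Every cell here was under MEK inhibition, and levels without PD0325901 are not analysed here.

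MEK phosphorylates ERK on a threonine and a tyrosine, and the MAP kinase phosphatases remove both phosphates. Several of them act as feedback: ERK signalling turns on their genes, and the enzymes then turn ERK off. The family members differ in where they act and on which kinase. Dusp6 (also called MKP-3) sits in the cytoplasm and acts on ERK, Dusp4 (MKP-2) sits in the nucleus and acts on ERK and JNK, and Dusp9 (MKP-4) acts mainly on ERK. In mouse embryonic stem cells Dusp9 is known as a gene that BMP signalling turns on and that lowers ERK activity, and ERK activity pushes these cells towards differentiation.

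The authors tested 31432 genes, a number worked out here from their false discovery rates. In every gene of the table the log2 fold change reached 1 in size and p was no larger than 0.0498. Values below are normalized reads, that is, reads divided by a size factor for each library. Reads on the listed genes ranged from 433684 to 683777 per library, and the full depth is unknown. Of the 12 markers fixed for embryonic stem cells, only Utf1 and Lin28a are listed, so the labelled cell type could be checked on those alone. Their summed level was 5553 to 5689 normalized reads in PC libraries and 14982 to 15535 in PD libraries. Both genes fell in the limma test of the listed genes, which called 19.8% of those genes lower. The table holds only genes that differed, so Utf1 and Lin28a cannot show whether the stem cell state changed. Other markers of the stem cell state are not analysed here.

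The catalytic site of these enzymes is coded in each transcript by a short stretch in which a histidine and a cysteine precede an arginine by a fixed spacing. It is shown because the family shares it, so that the letters in which its members differ there can be seen. The lines give the coding strand 5′ to 3′ from the GENCODE M21 transcripts (GRCm38), with the codons from that histidine to that arginine in capitals.
Dusp4: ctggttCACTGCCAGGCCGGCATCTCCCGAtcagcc
Dusp6: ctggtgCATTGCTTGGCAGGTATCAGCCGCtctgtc
Dusp9: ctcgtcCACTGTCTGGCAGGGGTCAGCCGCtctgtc
Dusp8: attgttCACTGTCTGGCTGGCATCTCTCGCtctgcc
The stretch covers coding bases 841 to 876 of Dusp4, 868 to 903 of Dusp6, 1063 to 1098 of Dusp9 and 727 to 762 of Dusp8, counted from the first base of the longest open reading frame. Over these 36 bases Dusp6 and Dusp9 differed at 7 positions, Dusp4 and Dusp6 at 11, and Dusp4 and Dusp9 at 12. In whole transcripts, 0 of 2705 distinct stretches of 36 bases in Dusp4 and 0 of 2761 in Dusp6 occurred in a transcript of any other gene on either strand. For Dusp9 it was 8 of 2632, or 0.304%. No source used here gives the read length. Exons of the 3 genes overlap no other annotated gene. Dusp4 (ENSMUSG00000031530) lies at chr8:34807297-34819894, Dusp6 (ENSMUSG00000019960) at chr10:99263231-99267489 and Dusp9 (ENSMUSG00000031383) at chrX:73639419-73643514, all on the plus strand of GRCm38 in GENCODE M21. The submitters' processing notes name the older build mm9, and no position in these data was needed.

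Dusp9 was higher in PC cells. It had 29498 and 31514 normalized reads in the PC libraries, against 13548 and 12741 in the PD libraries. Both PC libraries stood well above both PD libraries. The mean was 30506 ± 1425 in PC and 13145 ± 571 in PD (SD, n = 2 each), a ratio of 2.32 and a log2 difference of 1.21. The values that placed Dusp9 in the authors' deposited table were a log2 fold change of 1.21 and a p of 3.77e-106, the rank 14 among all 31432 genes. Because the comparison chose the gene, its difference is described here without a test of its own.

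Dusp9 had the highest mean normalized reads of the 1593 listed genes, and the highest level per kilobase of exon among the 1589 with a known exon length. Per kilobase it stood at 11207 ± 524 normalized reads in PC and 4829 ± 210 in PD (SD, n = 2 each). Its libraries also lay close together: they were 0.10 apart in PC and 0.09 apart in PD on the log2 scale. The pooled replicate SD was 0.065, smaller than in 84.4% of the listed genes that had a mean of at least 100 normalized reads. Counting error was smaller still. The 95% exact Poisson interval ran from 29192 to 29806 in PC replicate 1 and from 31135 to 31896 in PC replicate 2, so that the replicates of a group differed by more than counting error. Such intervals cover counting error only.

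Dusp6 was lower in PC cells. It had 467 and 419 normalized reads in the PC libraries, against 863 and 1015 in the PD libraries. Both PC libraries lay below both PD libraries, with a gap of 0.88 between the groups on the log2 scale. The mean was 443 ± 34.3 in PC and 939 ± 108 in PD (SD, n = 2 each), a log2 difference of -1.08. The authors' deposited table gives it a log2 fold change of -1.08 and a p of 9.84e-14, rank 827. This is the member nearest to the table's fold limit of 1; the gene closest to that limit stood at 1.00, and genes below it are not analysed here.

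Dusp4, the least abundant of the 3, was also lower in PC cells. It had 101 and 89.2 normalized reads in the PC libraries, against 176 and 238 in the PD libraries. The groups did not overlap, but the PD libraries stood 0.43 apart on the log2 scale, the widest replicate range of the 3 genes. The mean was 95.1 ± 8.38 in PC and 207 ± 43.7 in PD (SD, n = 2 each), a log2 difference of -1.10. In the authors' deposited table its log2 fold change was -1.10 and its p 2.53e-05, rank 2861. These values rest on 122 and 75 reads in PC and 182 and 260 in PD. The 95% Poisson intervals of the PC libraries overlapped, at 83.9 to 121 and 70.2 to 112 normalized reads. Those of the PD libraries did not, at 152 to 204 and 210 to 269.

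**Figure D1:**
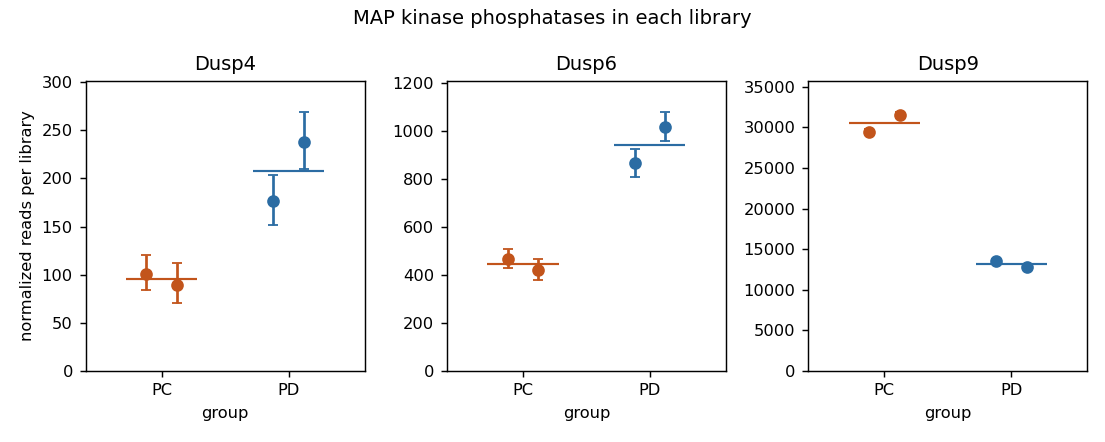
Normalized reads of Dusp4, Dusp6 and Dusp9 in each library, PC left of PD, each panel on its own linear axis from 0. Points are libraries with 95% exact Poisson intervals and lines are group means. Dusp4 and Dusp6 are lower and Dusp9 is higher in PC, with no overlap between groups.

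A lack of overlap says little in this table, since the groups did not overlap in 99.7% of the listed genes. Of all listed genes 613 had higher and 980 lower values in PC.

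The size factors of the libraries play no part in a ratio of 2 genes within 1 library, so such ratios describe the proportions of the 3 transcripts without them. They follow from the same selected differences and show relative levels only. Per kilobase of exon, Dusp9 exceeded Dusp6 by a factor of 72.6 and 86.6 in the PC libraries, against 18.1 and 14.4 in the PD libraries. Between the groups this ratio differed by 2.30 on the log2 scale, with a pooled replicate SD of 0.21, and was 4.91 times as high in PC. Dusp9 exceeded Dusp4 by a factor of 294 and 356 in the PC libraries, against 77.3 and 53.8 in the PD libraries. The 2 phosphatases that were lower kept nearly the same proportion to each other. Dusp6 exceeded Dusp4 by a factor of 4.04 and 4.11 in the PC libraries, against 4.28 and 3.73 in the PD libraries, and these ranges overlap. The log2 difference of that ratio was 0.03, within its pooled replicate SD of 0.10.

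**Figure D2:**
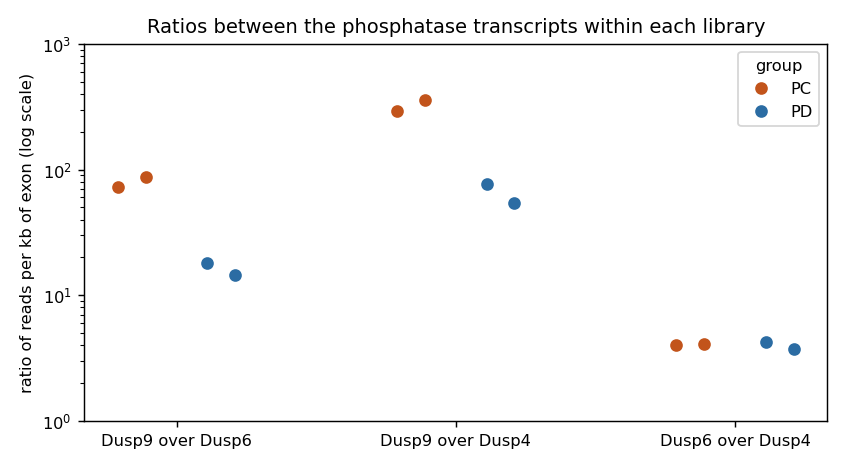
Ratios of reads per kilobase of exon between pairs of the 3 phosphatase transcripts, on a log axis, with 1 point per library and PC left of PD in each pair. The ratios of Dusp9 to Dusp6 and to Dusp4 are higher in PC, while the ratio of Dusp6 to Dusp4 lies between 3.73 and 4.28 in all 4 libraries.

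Dusp9 made up nearly all of the summed level of the 3 transcripts. Together they came to 11023 and 11744 normalized reads per kilobase in the PC libraries, against 5317 and 5092 in the PD libraries, a ratio of the means of 2.19. Dusp9 made up 98.3% and 98.6% of that sum in PC, against 93.6% and 91.9% in PD. These are shares of transcript sums, with lengths from GENCODE M21, which may not be the gene models the authors counted on. They say nothing of protein or enzyme activity.

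Of 10 MAP kinase phosphatase genes, Dusp8 was the other one listed, and the other 6, Dusp1, Dusp2, Dusp5, Dusp7, Dusp10 and Dusp16, are not analysed here. Dusp8, a phosphatase of JNK and p38, had 198 and 256 normalized reads in the PC libraries, against 98.9 and 114 in the PD libraries. It did not pass the test over all genes (log2 difference 1.08, SE 0.20, Benjamini-Hochberg adjusted p in limma = 0.112). Among listed genes 31.1% passed this test, 11.2% as higher and 19.8% as lower. By the authors' deposited values Dusp8 had a log2 fold change of 1.08 and a p of 1.1e-05, rank 2636, beside rank 2861 for Dusp4. The p-values printed for Dusp4, Dusp6 and Dusp9 are the authors' and are not comparable with the limma adjusted p of Dusp8. Exons of Dusp8 share 66 bases with a transcript on the other strand, Gm32786, so its reads may be mixed.

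The dual-specificity phosphatases outside the MAP kinase group included 1 gene that fell. Dusp27, an atypical member known for its role in zebrafish muscle, had 2273 and 1999 normalized reads in the PC libraries, against 6022 and 6388 in the PD libraries. Its log2 difference was -1.54 (SE 0.10, Benjamini-Hochberg adjusted p in limma = 0.0125), larger in size than that of any of the 3 MAP kinase phosphatases. Dusp26 averaged 40.7 ± 13.1 in PC and 90.9 ± 23.0 in PD and did not pass (Benjamini-Hochberg adjusted p in limma = 0.482). Epm2a, the glycogen phosphatase laforin, averaged 200 ± 23.4 in PC and 94.0 ± 10.9 in PD and did not pass either (Benjamini-Hochberg adjusted p in limma = 0.0956). Of 19 such genes these 3 were listed, and their median log2 difference was -1.15, against -1.17 over all listed genes.

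**Figure D3:**
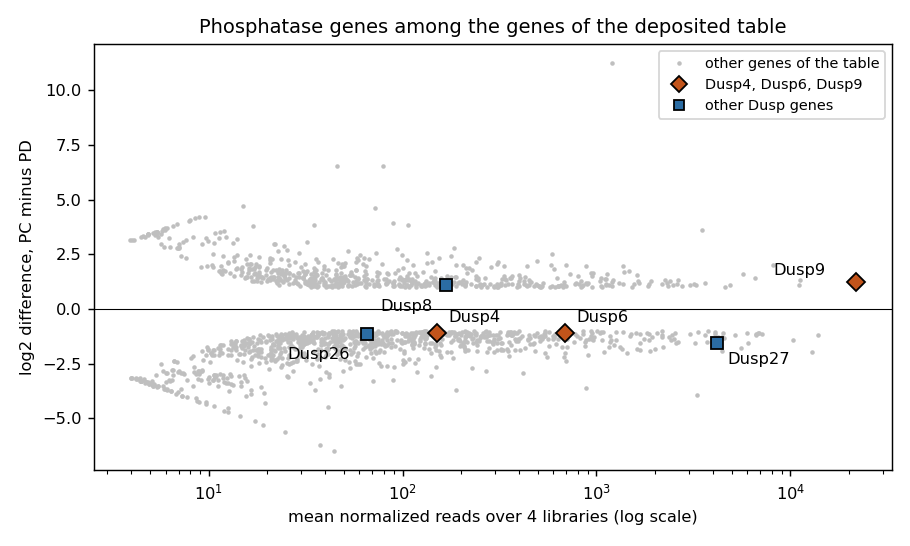
Log2 difference, PC minus PD, against mean normalized reads on a log axis for the 1593 genes of the deposited table. Diamonds mark Dusp4, Dusp6 and Dusp9, and squares Dusp8, Dusp26 and Dusp27. Dusp9 is the rightmost point, and no gene lies between -1 and 1 because the table was selected on fold change.

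The wider pathway was described from 145 genes other than the 3 phosphatases, in lists by role. These lists reach beyond the MAP kinase pathway, to other dual-specificity phosphatases, BMP and SMAD targets and protein kinase D. Of the 145 genes, 20 were in the table, which had been selected on the same comparison. The test was passed by 11, 2 higher and 9 lower, beside 31.1% of all listed genes. Dusp27 and Id2 are among the 11. Each of the 11 calls was lost when any 1 of the 4 libraries was left out, without the size factors, and with a prior for the spread that has no trend. The unadjusted p was under 0.05 for 19, 19, 15 and 17 of the 20 genes without PC replicate 1, PC replicate 2, PD replicate 1 and PD replicate 2, for 20 without the size factors and for 20 without the trend.

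Of 19 genes of FGF ligands, their carriers and receptors, 6 were listed, all with lower values in PC, and 4 fell. Among all 1593 listed genes 980 had lower values, and 19.8% were called lower. The median log2 difference of the 6 was -1.87. Over all listed genes, which hold both directions, the median was -1.17 and the median size of the difference 1.47. Fgf15, a secreted FGF of the embryo, had 555 and 581 normalized reads in the PC libraries, against 2312 and 2266 in the PD libraries (log2 difference -2.01, SE 0.09, Benjamini-Hochberg adjusted p in limma = 0.011). Fgf17 averaged 217 ± 8.76 in PC and 571 ± 56.8 in PD (SD, n = 2 each), a log2 difference of -1.39, and it passed as well. Fgf5, a growth factor of the epiblast, and the carrier gene Fgfbp1 also fell, with log2 differences of -2.68 and -2.22. Fgf1 and Fgf18 did not pass, with log2 differences of -1.74 and -1.06. Fgf23, an FGF gene outside the list of 19, was also in the table. It did not pass either, with a log2 difference of -1.365. No FGF receptor was listed.

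Among 16 receptor kinases that signal to Ras, 3 were listed and 2 passed, in opposite directions. Of all listed genes 11.2% were called higher and 19.8% lower. Ntrk3, a neurotrophin receptor, had 339 and 347 normalized reads in the PC libraries, against 137 and 130 in the PD libraries, and rose (log2 difference 1.36, SE 0.13, Benjamini-Hochberg adjusted p in limma = 0.0172). Tek, the angiopoietin receptor, averaged 1388 ± 104 in PC and 3363 ± 118 in PD and fell. Kdr did not pass, with a log2 difference of -1.36. Of 21 genes from Ras to ERK, 14 of the JNK and p38 kinases and 3 of protein kinase D, 0 were listed, so the kinases that the phosphatases act on and the kinases that CID755673 is aimed at are not analysed here.

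The other inhibitors and the targets of ERK had lower values in PC wherever they were listed. So did 980 of all 1593 listed genes, and 19.8% of all listed genes were called lower. Of 13 other inhibitors Spry2 and Spry4 were listed. Spry2, a Sprouty protein that restrains receptor kinase signalling, had 678 and 634 normalized reads in the PC libraries, against 1281 and 1565 in the PD libraries, and fell (log2 difference -1.11, SE 0.13, Benjamini-Hochberg adjusted p in limma = 0.028). Spry4 averaged 22.4 ± 7.04 in PC and 144 ± 61.5 in PD (SD, n = 2 each), a log2 difference of -2.60. It did not pass (Benjamini-Hochberg adjusted p in limma = 0.0751). Of 20 targets of ERK apart from Dusp genes, 4 were listed: Myc and Plaur, the urokinase receptor gene, fell with log2 differences of -1.53 and -1.90, while Fosl1 and Fosb, subunits of AP-1, did not pass, with log2 differences of -1.68 and -2.34. Their median was -1.79, beside the median size of 1.47 over all listed genes.

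Of 13 targets of BMP and SMAD signalling apart from Dusp9, Id2 was listed. It encodes an inhibitor of differentiation factors and had 4320 and 4549 normalized reads in the PC libraries, against 2143 and 1971 in the PD libraries. It rose, with a log2 difference of 1.11 (SE 0.09, Benjamini-Hochberg adjusted p in limma = 0.0142), beside 1.21 for Dusp9. Among all listed genes 11.2% were called higher, and a shared cause for Id2 and Dusp9 was not tested. The other 12 targets of the list are not analysed here.

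**Figure D4:**
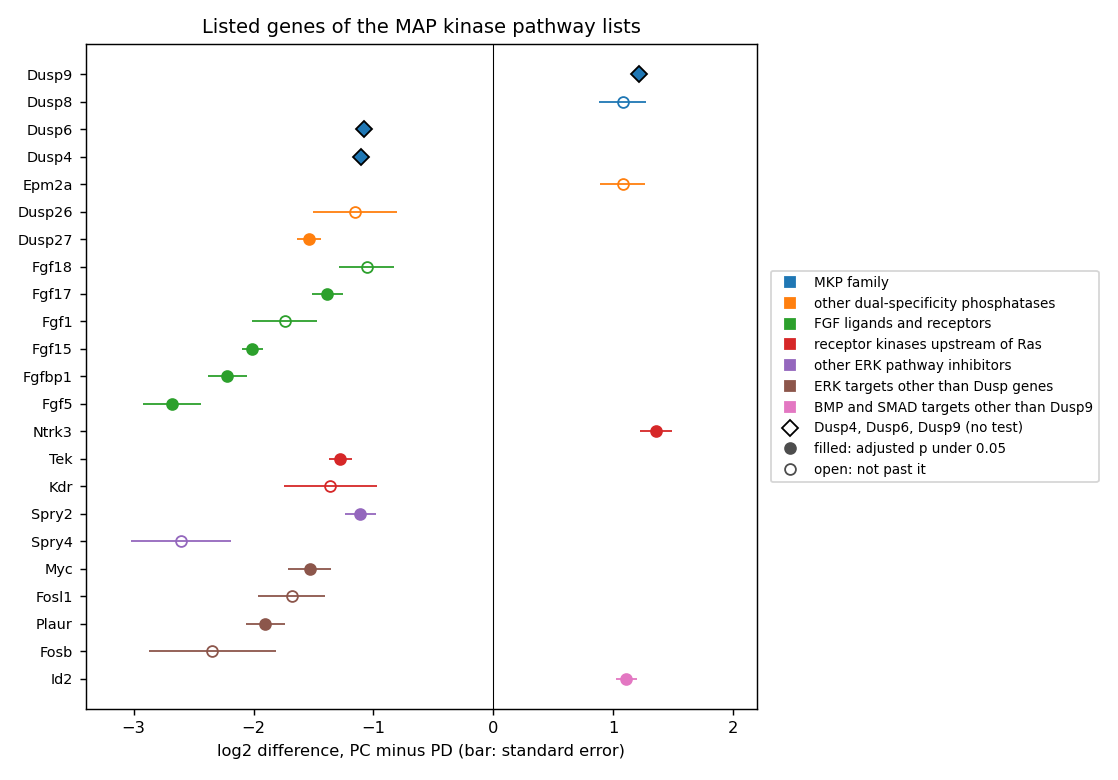
Log2 difference, PC minus PD, of the listed genes in each pathway list, with the standard error as a bar. Filled circles passed an adjusted p under 0.05 in limma and open circles did not. Diamonds are the 3 phosphatases, which entered the fit but are shown without a test result because the comparison chose them. Of the 20 other genes, 16 lie on the lower side, as do 980 of all 1593 listed genes.

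The listed genes with the profiles nearest to each phosphatase were found by the Euclidean distance of the 4 log2 values, centred on each gene's mean, among 597 genes with a mean of at least 100 normalized reads. The distance takes in the difference between the groups, on which the table was selected, and says nothing of shared control. Nearest to Dusp9 were Lgals1, a galectin, at a distance of 0.04, Ttc25 at 0.05 and Abca3, a lipid transporter, at 0.07. Nearest to Dusp6 were the drug transporter Abcb1a at 0.02, the transglutaminase Tgm1 at 0.04 and A730049H05Rik at 0.04. Nearest to Dusp4 were Spry2 at 0.12, the transglutaminase Tgm3 at 0.13 and Tex21 at 0.13. Lgals1 averaged 5006 ± 307 in PC and 2215 ± 93.7 in PD, and Abcb1a 882 ± 69.6 in PC and 1861 ± 186 in PD (SD, n = 2 each).

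Markers of other cell types are given with their summed levels, and every listed gene differs between the groups because the table was selected on fold change. Of 10 markers of extra-embryonic endoderm 3 were listed, Gata6, Foxa1 and Sox17, with a summed level of 896 to 1064 normalized reads in PC libraries and 398 to 420 in PD libraries, and Gata6 and Foxa1 rose while Sox17 did not pass. Of 8 trophoblast markers Gata3 was listed, at 133 to 195 in PC and 380 to 384 in PD, and did not pass. Of 7 fibroblast markers Col3a1 was listed, at 38.9 to 48.8 in PC and 89.2 to 114 in PD, and did not pass. Muscle markers, 3 of 6, summed to 294 to 304 in PC and 626 to 812 in PD, and endothelial markers, 2 of 5, to 1335 to 1499 in PC and 3343 to 3527 in PD. Of these Myh7 and Tek fell, and Myh6, Tnnt2 and Kdr did not pass. Beside these marker calls, 11.2% of all listed genes were called higher and 19.8% lower. Of 6 neural progenitor markers 0 were listed. No listed marker was at 0 reads in any library. Their part in the levels of the phosphatases was not tested, and in bulk RNA fewer cells of a type and less RNA per cell cannot be told apart.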

How the data were processed

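The authors deposited 1 table with, per the file headers, log2 values for each library, a log2 fold change, p-values and false discovery rates. Undoing the log and subtracting 1 gave whole multiples of 1 step per library for 100% of values (tolerance 0.001 reads), so reads and size factors (1.207 and 0.8406 in PC, 1.031 and 1.091 in PD) were recovered. Bowtie 0.12.2 and mm9 are named in the submitters' processing notes, with no role; no source used here gives the authors' counting, strand setting or test. Samples were grouped by their titles. The main test was limma 3.58.1 (R 4.3.3) on log2(value + 1), with a prior trended on level and without a block for replicates, which leaves 2 residual degrees of freedom; all listed genes, the 3 phosphatases included, had a mean of at least 1 normalized read. The Benjamini-Hochberg adjustment ran over the 31432 genes the authors had tested, taking unlisted genes to have larger p-values; calls are at an adjusted p under 0.05. The number 31432 comes from false discovery rate over p of the gene with the smallest p. With it, 88.3% of the ranks worked out for listed genes were whole numbers. All genes behind the estimate of spread had been selected for small p, so it may be too small. Exon lengths came from GENCODE M21 (1589 genes matched). The fit was tested on simulated data. Phosphatases, lists and nearest-profile rule were chosen with earlier results of these data known. Pathway genes were named where listed. The same replicate numbers did not pair the samples. Of the pathway lists 1 gene is not reported here.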

Additional observations from a re-analysis of the deposited data

How the results depend on the processing

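The 3 phosphatases kept their directions under every alternative run on them. With 1 library left out, the log2 difference ranged from -1.32 to -0.89 for Dusp4, from -1.20 to -0.96 for Dusp6 and from 1.17 to 1.26 for Dusp9, and that of the ratio of Dusp9 to Dusp6 from 2.13 to 2.46. Since the groups of each gene do not overlap, leaving out a library cannot turn a direction. Without size factors Dusp9 stood at 1.14, a move larger than its replicate SD. The calls were less stable. limma called 495 listed genes (179 higher, 316 lower) and 11 pathway genes. With 1 library left out it called 33 to 61 genes (1 to 33 higher, 0 to 60 lower) and 0 pathway genes, with 787 to 831 lower genes at an unadjusted p under 0.05 where 0 were called lower. These fits take a lone library to vary as the pair in the other group does. Without size factors 64 genes were called (24 higher, 40 lower; pathway 0), and without a trend 1 (1 higher, 0 lower, of 925 lower at an unadjusted p under 0.05; pathway 0). Adjusted over the listed genes alone, 1536 passed (581 higher, 955 lower; pathway 20), which the selection of the table nearly fixes. The replicate block gave 1176 (435 higher, 741 lower; pathway 19), but same-numbered libraries showed no shared deviation (r = -0.0034 across 597 genes). Voom on the recovered reads, chosen after the data were seen, called 661 genes and 12 pathway genes. The cause of these moves was not tested. Depth limits Dusp4 most, at 75 reads in PC replicate 2.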

Other observations

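The deposited table annotates 432 of its genes with KEGG pathways, and 25 of those analysed here carry the MAPK signaling pathway, a count taken after the values were seen. Dusp4, Dusp6, Dusp8 and Dusp9 are among them, and Dusp9 is the most abundant of the 25. Of the 22 other than Dusp4, Dusp6 and Dusp9, 5 had higher and 17 lower values in PC. Of all listed genes 613 were higher and 980 lower. limma called 2 of the 22 as higher and 6 as lower, beside 11.2% called higher and 19.8% called lower among all listed genes. Their median log2 difference was -1.26, against -1.17 over all listed genes.

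The 2 that rose were Gadd45b, a stress-response gene, and Rac1, a small GTPase of the actin cytoskeleton. Gadd45b had a log2 difference of 1.15 and Rac1 of 1.61. Among those that fell, Arrb1, which encodes the receptor adaptor beta-arrestin 1, had a log2 difference of -1.40. Ptpn7, a tyrosine phosphatase of ERK and p38, and the kinase gene Map3k8 did not pass, with log2 differences of -1.08 and -1.13.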
